A study of Homo sapiens with 120 samples.

Results

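The genes described here encode 10 proteins of the endoplasmic reticulum folding machinery, HSPA5, HYOU1, HSP90B1, CALR, PDIA4, DNAJB9, SDF2L1, DNAJC3, HERPUD1 and the transcription factor XBP1, in HepG2 cells exposed to metal oxide nanoparticles. They were chosen by name. Probes carrying the name of a member in the platform annotation were found for 9 of the 10, out of 20046 genes measured in the series, and no probe carried the name HERPUD1, which was not analysed here. HYOU1 and XBP1 had 2 probes each and the other members 1. A gene was represented by its probe with the highest mean over all arrays.

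HepG2 is a line from a human hepatocellular carcinoma. Per the labels, cells of passage 10 to 20 were plated at 40000 per cm2, and after 48 h flasks were left without nanomaterial (control, 8 arrays) or given 0.3, 3 or 30 µg/mL of 1 of 8 coded materials for 72 h. Of the TiO2 (titanium dioxide) materials by label, A came from Degussa, H from Mknano and I from Acros, and of the CeO2 (cerium dioxide) materials B and M came from Nano Amor and C, D and L from Alfa Aesar. Each treated group held 4 arrays at 0.3 µg/mL and 5 at 3 and 30 µg/mL, except M at 3 µg/mL with 4, which makes 25 groups with the controls. All groups are of the same line, with no transgene or other agent in the labels. Total RNA had integrity numbers of 9.8 to 10.0 and was read on Illumina HT-12 v4 bead arrays. Replicates are described as biological in the series text, whose count of formulations is below 8, and codes were kept separate.

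The endoplasmic reticulum folds secreted and membrane proteins, which a liver cell makes in large amounts. When unfolded protein accumulates, 3 sensors in its membrane, IRE1, PERK and ATF6, start the unfolded protein response, in which IRE1 splices the messenger RNA of XBP1 and the spliced XBP1 and cleaved ATF6 proteins raise transcription of chaperone genes. HSPA5 (BiP, GRP78) is the main Hsp70 chaperone of the compartment, HYOU1 (GRP170) is its large Hsp70-like nucleotide exchange factor, and DNAJB9, DNAJC3 and SDF2L1 work with HSPA5 as J-domain co-chaperones or a partner of them. HSP90B1 (GRP94) is the Hsp90 of the compartment, CALR binds glycoproteins and calcium, PDIA4 forms disulfide bonds, and HERPUD1 serves the degradation of misfolded proteins.

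Transcription by ATF6 and XBP1 runs through the endoplasmic reticulum stress response elements, so the upstream sequences of the 4 members with the most to say below, or with paired elements, are shown. Of the RefSeq promoter windows of build GRCh38.p14, each 250 bases before to 50 after a gene's start, 35116 were searched on both strands for CCAAT followed after any 9 bases by CCACG (element I) and for ATTGG followed after any 1 base by CCACG (element II). The letters of the motifs overlap in part: both end in CCACG, and the reverse complement of CCAAT is ATTGG. Element I was in 27 windows (0.0769%) and element II in 19 (0.0541%), and either was in 46 (0.131%). Windows of 7 of the 10 members held one: element I for HSPA5, HSP90B1, CALR and XBP1, and element II for HYOU1, SDF2L1 and HERPUD1. In the windows of DNAJB9, PDIA4 and DNAJC3 these letters did not occur. The sequences below are the 250 bases before the start, 5′ to 3′ on the gene's strand, with element matches in capitals. HSPA5 lies on chr9:125241344-125241593 (minus strand), HYOU1 on chr11:119057206-119057455 (minus strand), HSP90B1 on chr12:103930160-103930409 (plus strand) and XBP1 on chr22:28800570-28800819 (minus strand).
HSPA5: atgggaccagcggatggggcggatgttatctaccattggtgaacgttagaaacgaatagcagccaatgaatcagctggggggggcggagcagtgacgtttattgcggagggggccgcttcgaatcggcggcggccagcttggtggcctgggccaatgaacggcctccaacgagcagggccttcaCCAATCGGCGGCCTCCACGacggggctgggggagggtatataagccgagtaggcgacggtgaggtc
HYOU1: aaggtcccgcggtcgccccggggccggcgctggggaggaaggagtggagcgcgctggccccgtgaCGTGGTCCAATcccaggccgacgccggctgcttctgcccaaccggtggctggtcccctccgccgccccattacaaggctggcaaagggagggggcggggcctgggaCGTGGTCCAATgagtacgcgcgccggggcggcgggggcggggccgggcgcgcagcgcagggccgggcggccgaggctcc
HSP90B1: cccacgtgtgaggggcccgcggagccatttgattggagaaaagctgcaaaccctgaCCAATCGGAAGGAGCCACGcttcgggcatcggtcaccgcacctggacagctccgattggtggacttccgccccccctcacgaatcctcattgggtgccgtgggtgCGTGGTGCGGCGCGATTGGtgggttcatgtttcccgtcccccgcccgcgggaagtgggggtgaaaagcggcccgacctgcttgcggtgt
XBP1: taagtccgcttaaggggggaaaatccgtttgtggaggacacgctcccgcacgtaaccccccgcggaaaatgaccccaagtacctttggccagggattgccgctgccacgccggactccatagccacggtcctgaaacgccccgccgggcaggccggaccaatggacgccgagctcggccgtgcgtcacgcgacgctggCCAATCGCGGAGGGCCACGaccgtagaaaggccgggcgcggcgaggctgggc
HSPA5 and XBP1 carry 1 match of element I each, from 66 to 48 and from 52 to 34 bases before the start. HYOU1 carries the same 11 letters of element II, on the opposite strand, at 185 to 175 and at 79 to 69 bases before the start. HSP90B1 carries element I at 194 to 176 bases and, on the opposite strand, at 89 to 71 bases before the start. A match is a description of letters and not a measured binding site.

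Of the arrays, 9 stood apart from the rest on the first principal component over all probes (34.4% of the variance), with scores of −75.3 to −50.4 against −7.39 to 17.2 for the others. They were 1 of A at 30, 2 of H at 30, 1 of I at 0.3, 1 of I at 3, 1 of L at 0.3, 1 of L at 30 and 2 of M at 30 µg/mL, and 0 were controls. The labels name no batch for them, but the 9 follow one another without a break in the sample order of the series. Whether they shared a step of handling is not in the labels and was not tested. A member's call in a group that holds one is given with all arrays and with the 9 left out, and leaving them out was decided after the data were seen. Values given below without the array or arrays apart of a group come from that fit without all 9. The fit also changes the estimated spread, which is pooled over all groups. The liver line was recognisable by its markers, 8 of 9 of which were measured and lay at control means from 10.8 (TTR) to 14.0 (ALB) on the log2 scale. Of 6 markers of other cells, PTPRC, PECAM1, VWF and COL1A2 lay at control means of 6.55 to 6.60, at the array median of 6.62, CD14 at 7.22 and COL1A1 at 6.91.

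Read by the brightest probe of each member, HYOU1 differed most from its group mates in these 9 arrays. It was above the mean of the other arrays of its group in 9 of 9, with a median difference of 1.33 on the log2 scale (range 0.82 to 1.71). CALR was above in 9 of 9 (median 0.73), as were DNAJB9 (median 0.33) and HSP90B1 (median 0.26). PDIA4 was below in 9 of 9 (median −0.46) and so was DNAJC3 (median −0.31). HSPA5 was above in 5 and below in 4 (median 0.04), SDF2L1 above in 6 and below in 3 (median 0.18), and XBP1 below in 7 and above in 2 (median −0.27). The dimmer probe of XBP1 was below in 9 of 9 (median −1.29), and that of HYOU1 above in 9 of 9 (median 0.63). So the same arrays stood high for some chaperones, low for others, and on both sides for HSPA5. The members are among the genes that placed these arrays apart, so the differences are a description with no test.

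**Figure D1:**
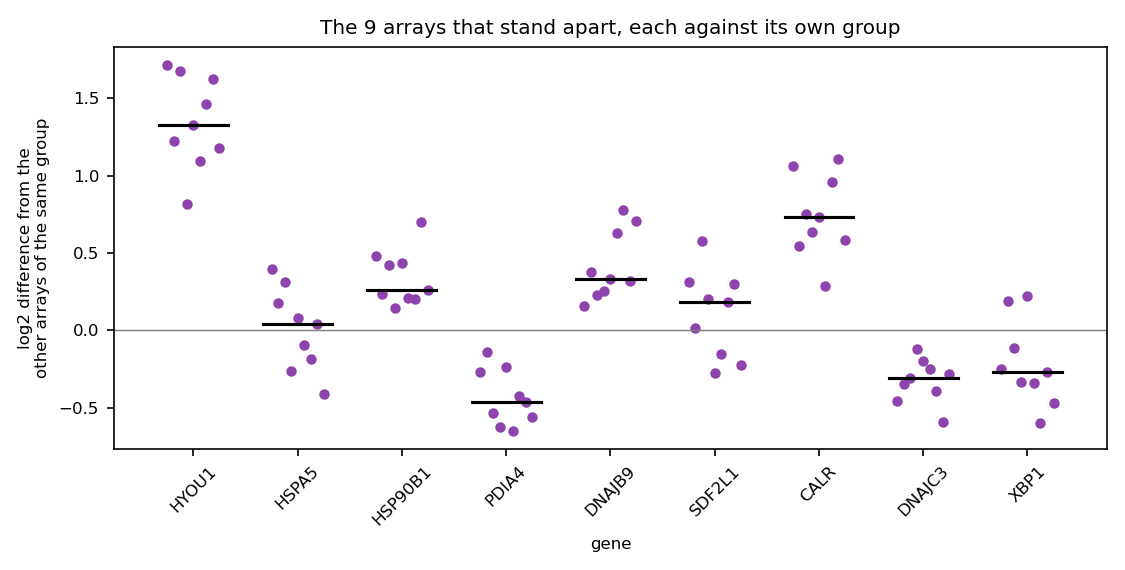
Difference on the log2 scale between each of the 9 arrays that stand apart and the mean of the other arrays of its group that do not, for the 9 measured members. Each member is read by its brightest probe. Points are arrays and bars are medians; HYOU1 (median 1.33) and CALR (0.73) lie above 0 in all 9, PDIA4 (−0.46) and DNAJC3 (−0.31) below 0 in all 9.

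Against control, HYOU1 rose in material A at 3 and 30 µg/mL and in L at 0.3 and 30 µg/mL, HSPA5 fell in M at 3 and 30 and in L at 0.3 and 3 µg/mL, and XBP1 fell in I at every dose and in A at 30 µg/mL. The XBP1 calls in I at 0.3 and 30 µg/mL missed the threshold in most alternative processings. The HYOU1 calls in L missed it in 9 of 23 at 0.3 and 6 of 24 at 30 µg/mL. HYOU1 also passed in H at 30 µg/mL, but not with the 9 arrays left out. In I the brighter HYOU1 probe passed at no dose with all arrays, while the other probe passed at each dose. With the 9 left out both probes passed at each dose of I. The calls went in both directions: at 30 µg/mL 4 of the 72 tests (9 members, 8 materials) were rises and 4 were falls. A gene passed where limma's adjusted p, over all 20046 genes of a comparison, was under 0.05. The share was 5.56% in each direction, beside 3.88% rises and 2% falls over all genes. At 3 µg/mL 1 test was a rise and 4 were falls (1.39% and 5.56%, beside 1.52% and 0.797% over all genes), and at 0.3 µg/mL there were 2 rises and 2 falls (2.78% each, beside 1.58% and 0.667%). Without the 9 arrays that stand apart the balance of directions differed. Rises and falls were then 6 and 5 at 30 µg/mL (8.33% and 6.94%, beside 3.51% and 2.08% over all genes), 5 and 4 at 3 µg/mL (6.94% and 5.56%, beside 2.96% and 1.98%) and 5 and 1 at 0.3 µg/mL (6.94% and 1.39%, beside 1.99% and 0.963%). All 24 comparisons share the 8 controls.

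At 30 µg/mL 2 of 9 members passed in A, where 8.51% of all genes did, 2 in I (3.92%), 2 in M (17.4%), 1 in H (9.46%) and 1 in L (6.9%). None of the 9 passed limma's test in B (0.743% of all genes), C (0.0649%) or D (0.015%). At an unadjusted p under 0.05 there were 1 member in B (CALR), 3 in C (DNAJB9, SDF2L1 and CALR) and 0 in D. The median change over the 9 members lay between −0.12 (B) and 0.14 (A) on the log2 scale in the 8 materials. In M, 2 of 9 members is near the share of all genes. With the 9 arrays left out the members that passed at 30 µg/mL were 2 in A (9.69% of all genes), 1 in B (4.27%), 1 in C (1.46%), 0 in D (0.434%), 0 in H (3.94%), 4 in I (10.2%), 1 in L (6.63%) and 2 in M (8.09%). At the other doses the shares of all genes that passed without the 9 arrays were 1.35% in A, 4.76% in I and 16.8% in L at 0.3 µg/mL and 10.4% in A, 5.08% in H, 9.8% in I, 10.3% in L and 3.44% in M at 3 µg/mL.

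**Figure D2:**
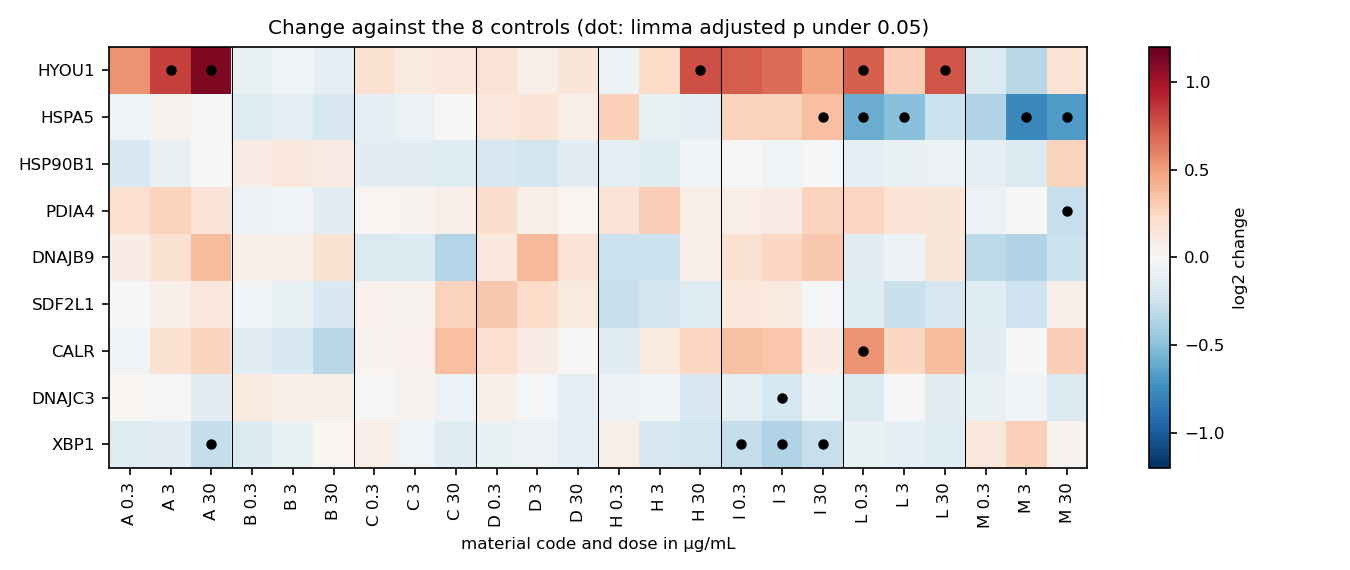
Log2 change against the 8 controls (colour) for the 9 measured members (rows) in the 24 groups of material and dose in µg/mL (columns); dots mark limma adjusted p under 0.05. HYOU1 is red across A, I and L, HSPA5 is blue across L and M and red across I, and the columns of B, C and D hold no dot.

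HYOU1 had the widest range of group means among the members, from 8.33 (M at 3 µg/mL) to 9.78 (A at 30 µg/mL) on the log2 intensity scale. In the 8 controls it read 8.63, 8.97, 8.77, 8.53, 8.25, 8.40, 8.86 and 8.93. In A at 30 µg/mL it read 9.49, 9.40, 11.15, 9.43 and 9.45, all above the highest control, with 1 array far above the other 4, the array of A that stands apart. The change was +1.12 ± 0.23 (SE, 5 treated against 8 control arrays), 2.17-fold higher, with a limma adjusted p of 0.000389. With all 9 arrays left out it was +0.77 ± 0.13 (limma adjusted p = 1.85e-05). Groups did not overlap, as for 1.68% of all genes in that direction.

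In A at 3 µg/mL, where no array stood apart, HYOU1 read 9.62, 9.60, 9.47, 9.28 and 9.48, again all above the controls (2.05% of all genes). It was higher by 0.82 ± 0.23 on the log2 scale (1.77-fold, limma adjusted p = 0.0199, n = 5 against 8), in a comparison where 4.39% of genes passed. In A at 0.3 µg/mL it read 9.01, 8.68, 9.61 and 9.54, on both sides of the highest control, with a change of +0.54 ± 0.25 that missed the threshold (limma adjusted p = 0.601, and 0.0198 with the 9 arrays left out of the fit, which narrows the estimated spread). Between 0.3 and 30 µg/mL within A no member passed limma's test (0.0249% of all genes did).

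In L, HYOU1 read 9.27, 9.09, 10.20 and 8.97 at 0.3 µg/mL, where the third array stands apart and the lowest touches the highest control. The change was +0.72 ± 0.25 (limma adjusted p = 0.043, 4 against 8 arrays), and with all 9 arrays left out +0.44 ± 0.14 (0.0203 by limma). At 30 µg/mL it read 10.59, 9.27, 9.52, 9.12 and 8.59, with 1 array apart and 1 within the controls. The change was +0.75 ± 0.23 (limma adjusted p = 0.0304), and +0.46 ± 0.13 with all 9 arrays left out (0.0162). The call at 0.3 µg/mL missed the threshold with replicate 1, 2 or 3 (the array apart) left out of every treated group. That at 30 µg/mL missed it with replicate 1 (the array apart) or 2 left out in this way. At 3 µg/mL in L it read 9.07, 8.97, 9.04, 9.46 and 8.28 and did not pass.

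In H at 30 µg/mL the HYOU1 result turned on 2 arrays. The values were 10.08 and 10.53 in the 2 arrays that stand apart and 8.74, 8.80 and 9.04 in the other 3, of which 1 lies above the highest control and the others inside the control range. With all arrays the change was +0.77 ± 0.23 (limma adjusted p = 0.0207), and without the 2 it was +0.19 ± 0.14 (0.548). In I the values were 9.30, 9.20, 10.00 and 9.07 at 0.3 µg/mL, 8.99, 9.20, 9.04, 10.40 and 9.07 at 3, and 9.38, 9.15, 9.08, 8.94 and 9.22 at 30 µg/mL. At the lower doses of I all arrays lay above all controls (1.85% and 1.04% of all genes), and at 30 µg/mL the lowest array fell just below the highest control. None of these 3 passed with all arrays (limma adjusted p = 0.0663, 0.0556 and 0.274), and all 3 passed with the 9 arrays left out (0.0161, 0.0284 and 0.00349).

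In B, C and D HYOU1 group means lay from 8.55 to 8.85, beside 8.67 ± 0.26 (SD, n = 8) in the controls, with changes of −0.12 to 0.18 on the log2 scale. In M the values at 30 µg/mL were 8.40, 8.37, 9.89, 9.45 and 8.04, the 2 high ones being the arrays apart, and the change was +0.16 ± 0.23 with them and −0.40 without them, neither past the threshold (limma adjusted p = 0.703 and 0.082). At 3 µg/mL M read 8.45, 8.43, 8.28 and 8.17, the lowest group mean of the 25. In the order of means at 30 µg/mL, A, H, L, I, M, D, C, control and B, each gap between neighbours was smaller than the larger of their SDs.

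The other HYOU1 probe, ILMN_1673649, gave like changes in A, I and L. Over all arrays its log2 values correlated with those of the brighter ILMN_2141790 at r = 0.855, a description, since both probes share each array. In a fit over all probes it changed in A at 30 µg/mL by +1.15 ± 0.17 (limma adjusted p = 8.31e-07) and in A at 3 µg/mL by +1.03 ± 0.17 (1.69e-05). It passed in H (+0.86, limma adjusted p = 0.000291), I (+0.63, 0.0141) and L (+0.58, 0.0219) at 30 µg/mL too. In I it also passed at 0.3 (+0.87, limma adjusted p = 0.00103) and 3 µg/mL (+0.79, 0.000943), where the brighter probe missed with all arrays, and both held with the 9 left out (0.00109 and 0.00145). In L at 0.3 µg/mL it passed with all arrays (+0.54, limma adjusted p = 0.0367) and missed without the 9 (+0.33, 0.208). It still passed in H at 30 µg/mL with the 9 arrays left out (+0.57, 0.0387), where the brighter probe did not, and missed in L at that dose (+0.46, 0.0514). In the 9 arrays this probe was above its group mates in 9 of 9, by a median of 0.63. The 2 probes parted in H at 3 µg/mL, with +0.57 by ILMN_1673649 and +0.24 by the brighter probe. There neither passed with all arrays (limma adjusted p = 0.0707 and 0.849), and only ILMN_1673649 passed without the 9 (0.0075, against 0.341). In M at 30 µg/mL they differed in sign with all arrays (−0.14 and +0.16), neither past the threshold.

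**Figure D3:**
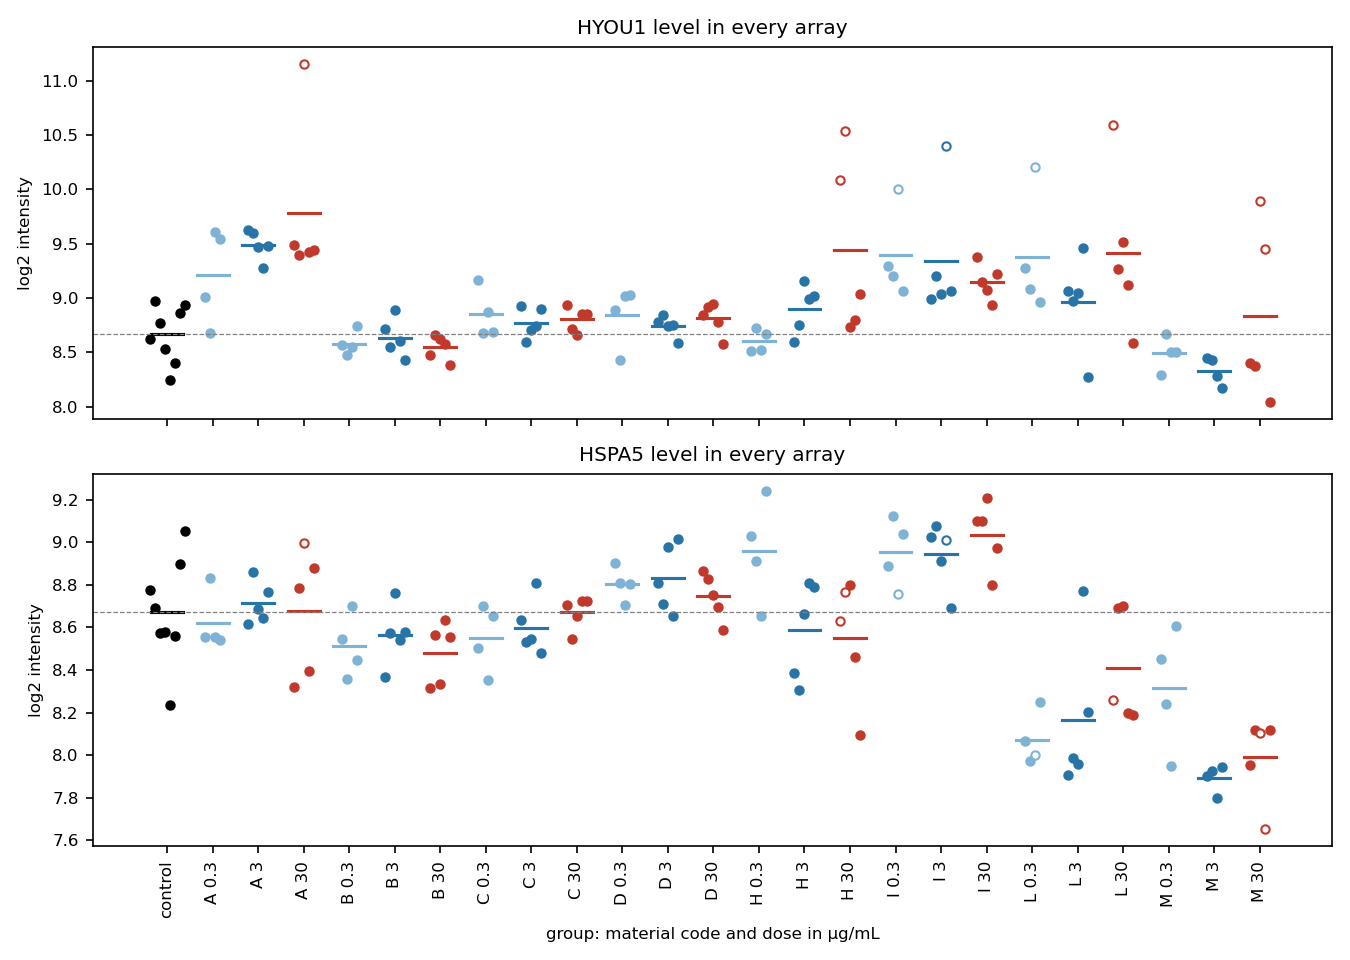
Log2 intensity of HYOU1 (top) and HSPA5 (bottom) in each array, by group (controls black, 0.3 µg/mL light blue, 3 µg/mL dark blue, 30 µg/mL red). Bars are group means, open points the 9 arrays that stand apart and the dashed line the control mean; the open points top their groups for HYOU1, while for HSPA5 6 lie inside the range of their group mates, 1 above it and 2 below it, and M at 3 µg/mL sits between 7.80 and 7.95, below all controls.

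HSPA5, the chaperone most often read as the marker of this response, did not follow HYOU1 in A or L. Both had their lowest group mean in M at 3 µg/mL, and their 25 group means correlated at r = 0.241. The controls of HSPA5 read 8.77, 8.69, 8.58, 8.58, 8.24, 8.56, 8.90 and 9.05. In M at 3 µg/mL it read 7.90, 7.93, 7.80 and 7.95, all below the lowest control (as for 0.673% of all genes in that direction). It was lower by 0.78 ± 0.12 on the log2 scale, 1.71-fold (limma adjusted p = 4.31e-05, 4 against 8 arrays), where 0.958% of genes passed.

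In M at 30 µg/mL HSPA5 read 7.95, 8.12, 8.10, 7.65 and 8.12, again below all controls (1.43% of all genes). It fell by 0.68 ± 0.11 on the log2 scale (1.60-fold, limma adjusted p = 2.85e-06, 5 against 8), and the change without the 2 arrays apart was −0.61 ± 0.13 (0.000767). At 0.3 µg/mL in M it read 8.45, 8.24, 7.95 and 8.61, partly inside the control range, and did not pass. M at 3 and 30 µg/mL thus lay apart from the controls with or without the doubted arrays.

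In L, HSPA5 read 8.07, 7.97, 8.00 and 8.25 at 0.3 µg/mL, of which only the highest reaches the lowest control. It fell by 0.60 ± 0.12 (1.51-fold, limma adjusted p = 0.000131), and the change without the array apart, the one at 8.00, was −0.57 ± 0.13 (0.000563). It was 1 of 3 members that passed there, with HYOU1 and CALR, where 12.2% of all genes passed. At 3 µg/mL it read 7.91, 7.99, 7.96, 8.77 and 8.20, with 1 array among the controls, and fell by 0.51 ± 0.11 (limma adjusted p = 0.00221, in a comparison where 4.06% of genes passed). At 30 µg/mL it read 8.26, 8.69, 8.70, 8.20 and 8.19, on both sides of the lower controls, and did not pass. In L at 0.3 µg/mL HSPA5 and its exchange factor HYOU1 therefore moved in opposite directions in the same arrays. The HYOU1 call there missed the threshold in 9 of 23 alternatives, and the HSPA5 call in 0 of 22.

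Against control, HSPA5 rose past the threshold only in material I at 30 µg/mL. It read 9.10, 9.10, 9.21, 8.80 and 8.97 at 30 µg/mL, of which 3 exceed the highest control. The change was +0.37 ± 0.11 (1.29-fold, limma adjusted p = 0.0428, n = 5 against 8), and it missed the threshold in 10 of 23 alternatives. At 0.3 and 3 µg/mL the HSPA5 means in I were 8.95 ± 0.16 (SD, n = 4) and 8.94 ± 0.15 (SD, n = 5), above the control mean of 8.67 ± 0.25, and did not pass. In H at 0.3 µg/mL the mean was as high, 8.96 ± 0.25 (SD, n = 4), and did not pass either. In A, where HYOU1 was highest, HSPA5 had means of 8.62, 8.71 and 8.68 at 0.3, 3 and 30 µg/mL, with changes of −0.05, 0.04 and 0.00 on the log2 scale.

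HSPA5 differed among the 8 materials at 30 µg/mL (limma F test, adjusted p = 6.14e-09, n = 5 each). With all arrays this was the smallest p of the members, while with the 9 left out HYOU1 had the smallest (1.72e-08, beside 1.58e-06 for HSPA5). In the order of means, I (9.04) stood above D (8.75) and M (7.99) below L (8.41) by more than the larger SD of the neighbours. The others and the controls, from 8.41 to 8.75, followed each other by less than their spread.

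Among the other abundant chaperones, CALR, the glycoprotein-binding lectin, rose in L at 0.3 µg/mL. It read 9.90, 10.15, 10.32 and 10.05, beside controls of 9.66, 9.98, 9.42, 9.30, 9.56, 9.48, 9.41 and 9.69. All but 1 of the treated arrays lie above the highest control. The change was +0.54 ± 0.16 (1.45-fold, limma adjusted p = 0.0104), and +0.47 ± 0.11 without the array apart (0.000745). In no material at 30 µg/mL did CALR pass with all arrays.

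With the 9 arrays left out CALR passed in 2 materials at 30 µg/mL that hold none of them, in opposite directions. In B it read 9.31, 9.13, 9.18, 9.17 and 9.34 (change −0.34, limma adjusted p = 0.0207, and 0.322 with all arrays in the fit). In C it read 9.78, 10.02, 9.67, 9.87 and 10.25 (change +0.36, 0.0293, and 0.427 with all arrays). The values of B and C do not change between these fits, only the spread pooled over all groups.

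HSP90B1, the Hsp90 of the compartment, did not pass against control in any of the 24 groups, with group means from 12.29 to 12.77 beside 12.50 ± 0.14 (SD, n = 8). It rose between 0.3 and 30 µg/mL in M, where it read 12.51, 11.97, 12.43 and 12.65 at 0.3 and 12.67, 12.76, 13.28, 12.84 and 12.29 at 30 µg/mL. The groups overlap, and the 2 highest values, 13.28 and 12.84, are the arrays apart. The change was +0.38 ± 0.12 (limma adjusted p = 0.0371, 5 against 4 arrays), where 7.61% of all genes passed, and +0.18 ± 0.12 without them (0.561, with 1.66% of all genes passing).

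PDIA4, a disulfide isomerase, fell in M at 30 µg/mL, where it read 7.77, 7.62, 7.18, 7.09 and 7.55 beside controls of 7.56 to 7.92 (median 7.66). The 2 lowest values are again the arrays apart. The change of −0.28 ± 0.10 (limma adjusted p = 0.0395) became −0.07 ± 0.09 without them (0.737). In I at 30 µg/mL PDIA4 read 8.17, 7.84, 8.13, 7.76 and 8.04, with a change of +0.27 ± 0.10 that missed the threshold with all arrays (limma adjusted p = 0.101) and passed without the 9 (0.00762). PDIA4 also passed as a rise without the 9 arrays in 3 other groups. In L at 0.3 µg/mL it read 8.05, 8.22, 7.49 and 8.14, the low value being the array apart, with a change of +0.26 with it (limma adjusted p = 0.105) and +0.42 ± 0.09 without it (0.000182). In A and H at 3 µg/mL, which hold no array apart, the changes were +0.27 (limma adjusted p = 0.113 with all arrays and 0.00883 without the 9) and +0.30 (0.115 and 0.00659).

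Of the co-chaperones, DNAJC3, a J-domain inhibitor of PERK and partner of HSPA5, fell in I at 3 µg/mL. It read 7.06, 6.74, 7.01, 6.73 and 6.90 beside controls of 6.91 to 7.28, with 2 arrays inside the control range. The lowest array, replicate 4, stands apart. The change was −0.21 ± 0.07 (1.15-fold lower, limma adjusted p = 0.0469). It was −0.17 with replicate 4 left out of every treated group (limma adjusted p = 0.315). With all 9 arrays left out the change was the same, with an SE of 0.05 (limma adjusted p = 0.0252). The call missed the threshold in 12 of 23 alternatives. It was 1 of 2 members that passed there, with XBP1, where 7.72% of all genes passed. DNAJB9 (ERdj4), a J-domain protein that XBP1 is known to raise, passed in no comparison with control. Its changes ran from −0.36 in M at 3 to 0.38 in D at 3 µg/mL. SDF2L1 also passed in none, with changes from −0.28 in H at 0.3 to 0.32 in D at 0.3 µg/mL. Without the 9 arrays DNAJB9 passed in M at 30 µg/mL (−0.46 ± 0.15, limma adjusted p = 0.043, and 0.23 with all arrays).

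XBP1, the transcription factor of the IRE1 arm, was lower in I at each dose. Controls read 12.47, 12.27, 12.11, 12.64, 12.42, 12.50, 12.60 and 12.12. In I it read 12.21, 12.14, 11.86 and 12.23 at 0.3, 11.98, 12.09, 11.87, 12.21 and 12.00 at 3, and 12.10, 12.02, 12.06, 12.26 and 12.11 at 30 µg/mL. Each group of I lay below the control mean in every array and overlapped the lowest controls.

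At 3 µg/mL in I XBP1 fell by 0.36 ± 0.09 (1.28-fold, limma adjusted p = 0.00329), at 0.3 µg/mL by 0.28 ± 0.09 (0.0494, in a comparison where 5.57% of genes passed) and at 30 µg/mL by 0.28 ± 0.09 (0.0439). Without the 9 arrays the changes were −0.40 (limma adjusted p = 0.000164), −0.20 (0.191) and −0.28 (0.00511). The XBP1 calls in I missed the threshold in 16 of 23 alternatives at 0.3, 3 of 24 at 3 and 17 of 24 at 30 µg/mL. In A at 30 µg/mL XBP1 read 12.14, 12.18, 11.91, 12.23 and 12.07, all below the control mean, and fell by 0.28 ± 0.09 (limma adjusted p = 0.0216, and 0.0363 without the array apart). That call missed in 7 of 24 alternatives. In M at 3 µg/mL XBP1 had its highest group mean, 12.68 (change +0.29 ± 0.09, limma adjusted p = 0.125, and 0.0172 without the 9 arrays), in the group where HSPA5 and HYOU1 had their lowest.

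The 2 probes of XBP1 parted in the arrays that stand apart. The dimmer ILMN_2365465 was below its group mates in 9 of 9 of them, by a median of 1.29 (range 0.29 to 1.78), and the brighter ILMN_1809433 in 7 of 9, by a median of 0.27. The probes correlated at r = 0.641 over all arrays and at r = 0.83 over the other 110. With all arrays ILMN_2365465 passed at 30 µg/mL in H (−0.68 ± 0.22, limma adjusted p = 0.0417), where 2 arrays stand apart, and without them read −0.11 there (0.679). For A at 30 µg/mL it gave −0.55 (limma adjusted p = 0.138), and for I −0.52 at 0.3 (0.242), −0.65 at 3 (0.0587) and −0.23 at 30 µg/mL (0.703), so none of the 4 calls of XBP1 against control passed in it with all arrays. Without the 9 arrays it passed in I at 3 µg/mL (−0.36, limma adjusted p = 0.00477) and not in A at 30 (−0.19, 0.235) or in I at 0.3 (−0.20, 0.358) or 30 µg/mL (−0.23, 0.0743). Which XBP1 transcripts each probe reads was not analysed here, so nothing is said of the splicing step.

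**Figure D4:**
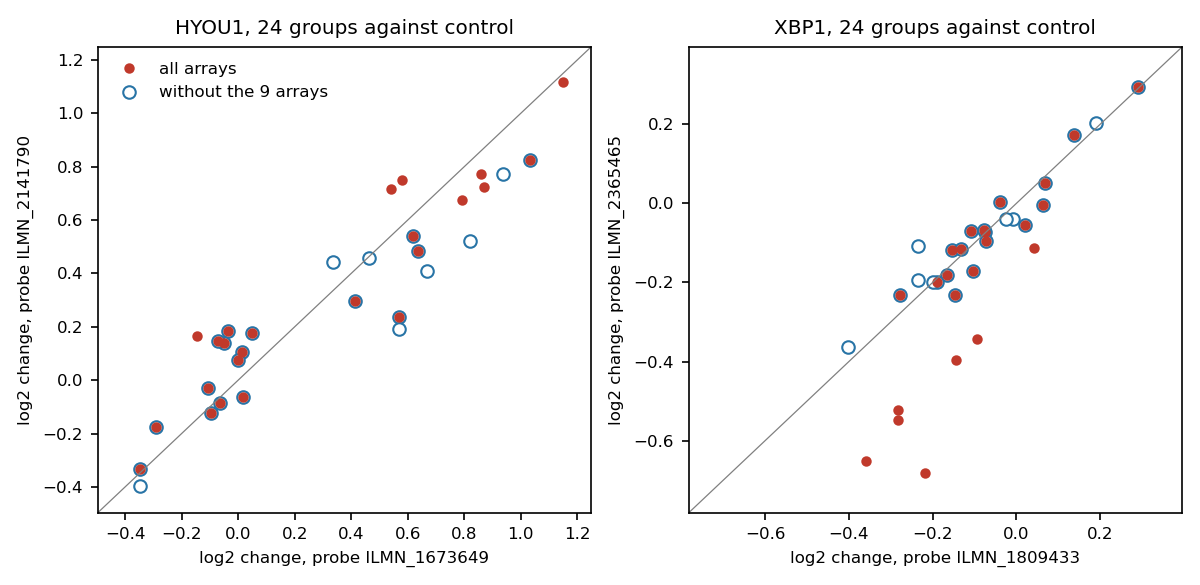
Log2 change against control by each of the 2 probes of HYOU1 (left) and XBP1 (right) in the 24 groups, with all arrays (filled) and without the 9 that stand apart (open); the line marks equal change. For XBP1 6 filled points lie well below the line, at changes of −0.34 to −0.68 by ILMN_2365465, and their open counterparts lie near it.

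The 8 materials differed from each other at 30 µg/mL in 8 of the 9 members by limma's F test, in which 37.6% of all genes passed. With all arrays HSPA5 was followed by DNAJB9 (adjusted p = 0.000217), HYOU1 (0.000247), PDIA4 (0.000456), CALR (0.00143), SDF2L1 (0.00164), XBP1 (0.0108) and HSP90B1 (0.0383). DNAJC3 did not pass (0.0926). HSP90B1 did not pass either without the 9 arrays (0.231, with 39.8% of all genes passing). The highest mean was in A for HYOU1 and DNAJB9, in I for HSPA5 and PDIA4, in M for HSP90B1 and XBP1, in C for SDF2L1, in L for CALR and in B for DNAJC3.

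For DNAJB9 the material means ran from 8.33 ± 0.21 (SD, n = 5) in C to 9.06 ± 0.23 in A, and for SDF2L1 from 9.23 ± 0.13 in L to 9.70 ± 0.31 in C, although neither passed against the controls. In C at 30 µg/mL DNAJB9 read 8.60, 8.18, 8.51, 8.19 and 8.18, and in A 8.68, 8.98, 9.19, 9.22 and 9.24. The controls held an array at 9.36, with the rest from 8.32 to 8.81. In C 3 of the 5 arrays lay below the lowest control, and in A 4 of the 5 lay above all controls but the one at 9.36.

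The labelled oxides did not differ in any member past the threshold when the 5 CeO2 and 3 TiO2 material means at 30 µg/mL were compared by limma, and 0% of all genes passed. At an unadjusted p under 0.05 there were 1371 genes (6.84%), among them HYOU1 and XBP1. The mean of HYOU1 was 8.88 over the CeO2 and 9.46 over the TiO2 materials (difference −0.58 ± 0.21, limma adjusted p = 0.708), and that of XBP1 12.32 and 12.13 (+0.19 ± 0.05, limma adjusted p = 0.653). No vendor supplied both oxides, so vendor and oxide cannot be told apart.

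Between 0.3 and 30 µg/mL within a material, 3 of 72 tests passed: HYOU1 and HSPA5 in H (8% of all genes) and HSP90B1 in M. HYOU1 in H read 8.51, 8.72, 8.52 and 8.67 at 0.3 µg/mL, and its change of +0.83 ± 0.27 (limma adjusted p = 0.0413) came with the 2 arrays apart; without them it was +0.25 ± 0.16 (0.439), with 5.51% of all genes passing. HSPA5 in H read 9.03, 8.91, 8.65 and 9.24 at 0.3 and 8.63, 8.77, 8.80, 8.46 and 8.09 at 30 µg/mL, ranges that overlap. It fell by 0.41 ± 0.13 (1.33-fold, limma adjusted p = 0.0381), and by 0.51 ± 0.15 without the 2 arrays (0.0233). XBP1 in H missed with all arrays (−0.29 ± 0.10, limma adjusted p = 0.0596) and passed as a fall without them (−0.30, 0.0429). Neither H group differed from the controls in HSPA5 past the threshold.

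Across the 25 group means the 36 pairs of members had Pearson correlations from −0.747 (HYOU1 with XBP1) to 0.695 (HYOU1 with CALR), with a median near 0 (0.007) and 19 pairs above 0. These are descriptions over groups that share arrays and probes on each array. Without the 9 arrays HYOU1 correlated with PDIA4 at 0.77, with XBP1 at −0.683, with CALR at 0.541 and with HSPA5 at 0.411. Within groups, over all arrays, the pairs ran from −0.681 (CALR with DNAJC3) to 0.759 (HYOU1 with CALR), and over the other 110 from −0.447 to 0.541. The link of HYOU1 with CALR within groups was 0.283 over those 110.

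Over the same 25 group means the genes most like HSPA5 by Pearson correlation were RPS23 (0.94), TSC22D3 (0.924), SDC2 (0.908), SORBS2 (0.903) and H2BC12 (0.902). Those most like HYOU1 were CAD (0.973), DHDDS (0.968), TXNDC5 (0.96), APLP2 (0.958) and TSPYL4 (0.955). Members were left out of this search. With the 9 arrays left out the values were 0.873 to 0.934 for the first 5 and 0.85 to 0.94 for the second.

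Of 53 other genes of the folding and stress pathway, 51 were measured. At 30 µg/mL 24 of their 408 tests were rises and 15 were falls (5.88% and 3.68%, beside 3.88% and 2% over all genes). Rises and falls numbered 6 and 2 in A, 1 and 0 in B, 0 and 0 in C and in D, 4 and 2 in H, 3 and 1 in I, 4 and 3 in L and 6 and 7 in M. They numbered, with the 9 arrays left out, 10 and 1 in A, 1 and 3 in B, 0 and 0 in C and in D, 1 and 1 in H, 4 and 1 in I, 3 and 1 in L and 3 and 6 in M. At an unadjusted p under 0.05 C and D had 1748 and 940 of all 20046 genes, in which 13 and 3 passed limma's test.

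Among the 7 genes of the PERK and ATF4 arm, each tested in 8 materials at 30 µg/mL, 8 tests were rises and none a fall. Over all genes 3.88% of tests were rises and 2% falls. The 8 rises lay in A, I, L and M (2 each), where 6.16%, 2.62%, 5.23% and 10.5% of all genes rose. PPP1R15A (GADD34), which brings the phosphatase to eIF2α, rose in M by 1.06 ± 0.14 (limma adjusted p = 1.52e-08, n = 5 against 8, and +0.76 without the 2 arrays apart). TRIB3, a pseudokinase target of ATF4, rose in M by 0.68 ± 0.12 (8.05e-06, and +0.68 without them, 7.74e-05). ATF4 itself read −0.93 in M with all arrays (limma adjusted p = 0.0839) and +0.27 without the 2 (0.00273), a change of direction. DDIT4, an inhibitor of mTORC1, rose in A by 0.81 ± 0.15 (limma adjusted p = 6.92e-05), in I by 0.55 and in L by 0.51, and SESN2 rose in A by 0.53, in I by 0.38 and in L by 0.36. In M, PPP1R15A and TRIB3 rose in the same 5 arrays in which HSPA5 fell. With the 9 arrays left out SESN2 passed in A, I and L (+0.56, +0.38 and +0.36) and DDIT4 in A and I (+0.70 and +0.55), and DDIT4 in L did not pass (limma adjusted p = 0.091).

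Among 9 sensors and regulators, each tested in 8 materials at 30 µg/mL, 7 tests were rises and none a fall. Over all genes 3.88% of tests were rises and 2% falls. Most of the rises were of a single gene, MBTPS1. MBTPS1, the site 1 protease that cleaves ATF6, rose in A (+0.39), H (+0.54), I (+0.55) and L (+0.39), each time also without the 9 arrays (+0.57, +0.54, +0.55 and +0.52). CREB3L2 rose in H (+0.49) and M (+0.52) and ATF6B in M (+0.26), and none of these 3 passed without the arrays apart (limma adjusted p = 0.197, 0.59 and 0.478). In A, CREB3L2 (+0.29) and EIF2AK3, which encodes PERK (+0.20), passed only without the 9 arrays (limma adjusted p = 0.0165 and 0.00875, and 0.0771 and 0.683 with all).

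Of 12 genes of quality control and degradation, OS9, a lectin that hands glycoproteins to the degradation complex, rose in A (+0.59), H (+0.51) and L (+0.55). SELENOK, a selenoprotein of that complex, fell in A (−0.29), H (−0.30), L (−0.25) and M (−0.43), and SELENOS fell in H (−0.69) and M (−0.66). DERL1 (−0.63) and DERL2 (−0.26), which form the exit channel, fell in M. Without the 9 arrays OS9 passed in A, I and L, SELENOK in A and M, SELENOS in both materials and DERL1 in M, where it read −0.23. Then EDEM1 (+0.39) and DERL1 (+0.37) also passed in A, and SYVN1 (−0.29) and EDEM2 (−0.29) in B.

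Of the 16 further folding factors, TXNDC5 rose in A (+0.45) and H (+0.39), P4HB (+0.49) and SIL1 (+0.43), a second exchange factor of HSPA5, rose in M, and HSPA13 rose in B (+0.38) and fell in L (−0.39). CRELD2 in A (−0.25), MANF in I (−0.29) and PPIB in L (−0.17) fell. Without the 9 arrays P4HB (+0.12, limma adjusted p = 0.482) and SIL1 (+0.28, 0.206) in M, TXNDC5 in H (+0.11, 0.593), CRELD2 (0.062) and PPIB (0.134) did not pass, while P4HB in B (−0.26) and TXNDC5 in M (−0.27) did, as falls. Of 7 translocation genes, SEC61A1 rose in A (+0.44), and in M SEC61B (−0.92), SPCS3 (−0.31) and SEC11C (−1.49) fell. SEC11C, a signal peptidase subunit, was −0.41 in M without the 2 arrays apart (limma adjusted p = 0.00505). SEC61B was −0.30 there (0.0222) and SPCS3 −0.13, which did not pass (0.308).

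**Figure D5:**
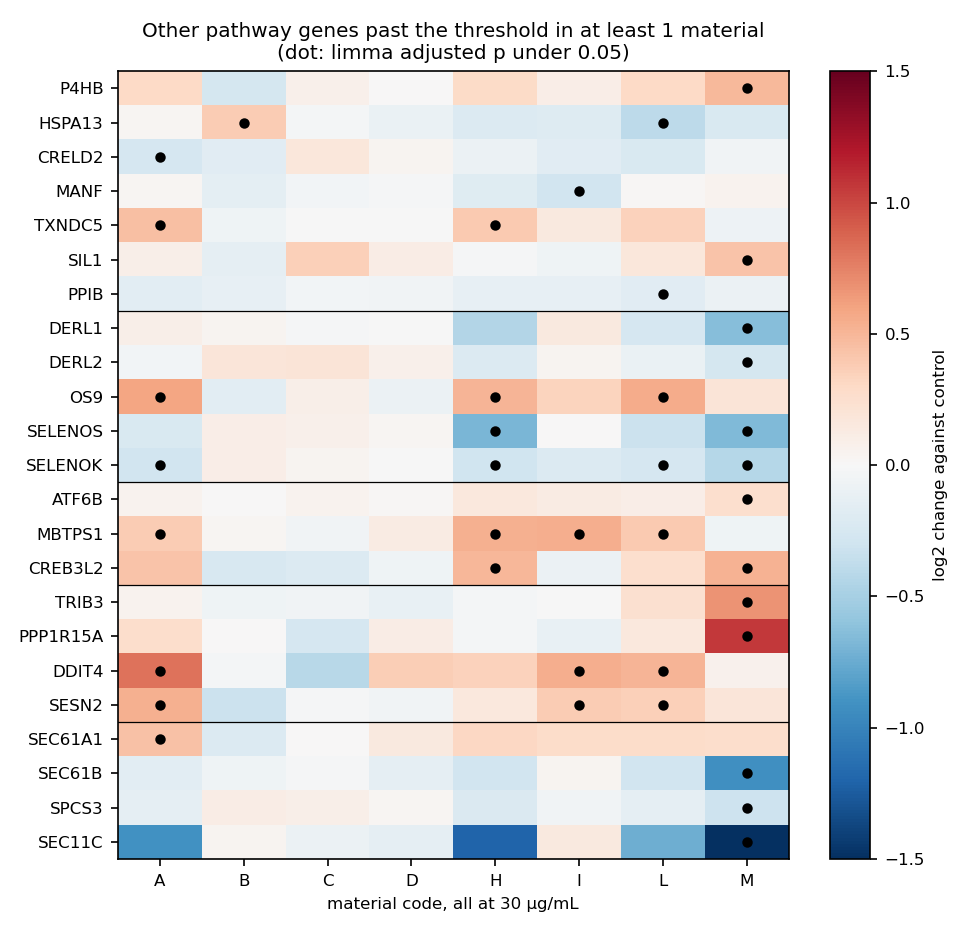
Log2 change against control at 30 µg/mL in the 8 materials (columns) for the 23 other pathway genes that passed in at least 1 (rows, lists divided by lines, from the top: folding factors, quality control and degradation, sensors and regulators, PERK and ATF4 arm, translocation); dots mark limma adjusted p under 0.05. M holds 13 dots, from PPP1R15A (+1.06) to SEC11C (−1.49), and C and D hold none.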

How the data were processed

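HepG2 RNA was read on bead arrays. The deposited table holds linear probe intensity; the authors used beadarray 2.4.1 and R 2.14.0, per the labels, and their background correction and normalization are unstated here. Array medians are all 98.4, and the ordered log2 values differ between arrays by over 0.01 at 2 ranks, so a change is relative to the other genes. Of 48107 probes, 30113 carry a single symbol, 8 carry several and 17986 carry none; 30074 were matched to RefSeq identifiers, with 0 symbols updated.

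Labels gave the groups; an array of M with conflicting dose labels entered no comparison. The log2 values, with no pseudocount or filter, went into a single fit over 25 groups without covariates by limma 3.58.1 (R 4.3.3, prior degrees of freedom 2.15), with Benjamini-Hochberg adjustment per comparison and a threshold of 0.05. The fit was tested on simulated data. The closest arrays differed by 0.0897 (root mean square, log2) and 0 pairs were identical. P-values measure the spread between flasks. The 9 measured members were tested in every comparison. The 53 other pathway genes are given by counts and, where past the threshold at 30 µg/mL, by value, and the genes of like pattern are the 5 with the highest correlation over group means. Members and lists were chosen with earlier results of these data known. Alternatives covered the probe choice, dim genes, 2 normalizations, a replicate block, the prior, separate fits, a 1.5-fold minimum, left-out replicates, controls and materials, and, decided after the data were seen, the 9 arrays that stand apart. Tables and plots used pandas 2.3.3, numpy 2.4.6 and matplotlib 3.10.9 in Python 3.11.15.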

Additional observations from a re-analysis of the deposited data

Results flagged for a closer look

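In 21 of 225 groups of arrays and members, 1 array lay far from the others of its group by Dixon's criterion, which chance meets in about 1 of 20 groups. Of these, 12 are arrays that stand apart over all probes. In A at 30 µg/mL replicate 3 read 11.15 for HYOU1, 12.89 for HSP90B1, 10.68 for CALR and 6.60 for DNAJC3. In L at 30 µg/mL replicate 1 read 12.60 for HSP90B1, 10.71 for CALR and 6.66 for DNAJC3. In I at 3 µg/mL replicate 4 read 10.40 for HYOU1 and 10.48 for CALR. In I at 0.3 µg/mL replicate 3 read 7.33 for PDIA4 and 10.39 for CALR, and in L at 0.3 µg/mL replicate 3 read 6.75 for DNAJC3. HYOU1 and CALR lay above and PDIA4 and DNAJC3 below all their group mates in each of these arrays, while HSP90B1 lay above them except in L at 0.3 µg/mL, where it read 12.54, inside their range.

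The other 9 were HSPA5 at 8.83 in A at 0.3 µg/mL (replicate 2), HSP90B1 at 12.53 in D at 0.3 (replicate 1), PDIA4 at 7.49 in B at 3 (replicate 4) and at 7.47 in D at 30 µg/mL (replicate 5), DNAJB9 at 9.36 in control replicate 8, SDF2L1 at 10.07 in control replicate 2 and at 10.06 in I at 3 µg/mL (replicate 5), DNAJC3 at 7.12 in H at 0.3 (replicate 2) and XBP1 at 12.57 in B at 30 µg/mL (replicate 1).

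The 8 materials at 30 µg/mL differed in 8 members by limma's F test, in which 37.6% of all genes passed. The adjusted p was 0.000247 for HYOU1, 6.14e-09 for HSPA5, 0.0383 for HSP90B1, 0.000456 for PDIA4, 0.000217 for DNAJB9, 0.00164 for SDF2L1, 0.00143 for CALR and 0.0108 for XBP1. Without the arrays that stand apart HSP90B1 did not pass (limma F test, adjusted p = 0.231).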

How the results depend on the processing

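Over 20 member and comparison pairs that passed, 322 of 441 alternative values stayed past the threshold. All 441 kept the direction, which could not differ in some of them. The 1.5-fold minimum, the prior, separate fits and leaving out dim genes do not alter the change itself. HSPA5 in L at 0.3 and in M at 3 and 30 µg/mL and HYOU1 in A at 30 µg/mL passed in all alternatives run for them. The count of 8 at 30 µg/mL became 5 with the replicate block, 3 with separate fits, 4 with a change of at least 1.5-fold and 11 without the 9 arrays that stand apart. Leaving out 1 treated replicate gave 4 to 8 and 1 control 4 to 11; it was 4 without replicate 2 or without control 4 and 5 without control 6 or 7. At 3 µg/mL the count of 5 became 3 with separate fits, 2 with 1.5-fold and 9 without the 9 arrays (5 rises and 4 falls in place of 1 and 4), and leaving out 1 replicate or control gave 3 to 6. At 0.3 µg/mL the count of 4 became 2 with the replicate block, 2 with separate fits, 2 with 1.5-fold and 6 without the 9 arrays (5 rises and 1 fall in place of 2 and 2), and leaving out 1 array gave 1 to 4. Between doses the count of 3 became 0 with separate fits, 1 with 1.5-fold, 2 without the 9 arrays (HSPA5 and XBP1, both falls in H) and 0 to 3 leaving out 1 replicate. The cause was not tested, except that separate fits and left-out arrays rest on fewer arrays. Same-numbered treated and control arrays deviated together (every correlation over 0.1) in 0 of 24 comparisons (range −0.542 to 0.578), so the main fit did not pair arrays. This rule cannot tell whether some arrays are paired (median correlation 0.268 in C at 30 µg/mL). Pairing between treated groups was not tested. The F test gave 6 to 8 members and the comparison of oxides 0 throughout. No member lay below the median level of all genes. Groups of 4 or 5 arrays limit every value.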

Other observations

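The array of M whose title gives the low dose and whose dose label gives 3 µg/mL read 8.14 for HSPA5, below the lowest control (8.24), inside the range of M at 0.3 µg/mL (7.95 to 8.61) and above that of M at 3 µg/mL (7.80 to 7.95). It read 8.44 for HYOU1, 8.19 for DNAJB9 and 12.52 for XBP1. For CALR it read 9.97, above both M groups (9.17 to 9.53 and 9.44 to 9.72), and for SDF2L1 9.76, also above both (9.15 to 9.44 and 8.96 to 9.33). It read 12.47 for HSP90B1, 7.69 for PDIA4 and 7.08 for DNAJC3, inside the control ranges.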
